A study of Mus musculus with 4 samples.

Results

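The genes examined here copy the genome during S phase or supply the nucleotides for it. Of the 55141 genes listed in the deposited expression table, 49 belong to this set, picked by gene symbol from a list that covers origin licensing, polymerases, the sliding clamp, nucleotide synthesis and S phase regulators. All 49 averaged at least 1 TPM across the 4 libraries, a filter that 13191 genes passed. TPM is the deposited unit of expression, in which the reads of a gene are divided by its length and each library is scaled to the same total.

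Messenger RNA 3′ ends were sequenced (QuantSeq, FWD) from articular chondrocytes that collagenase released from the femoral heads of mice aged 3 weeks and that grew in DMEM with serum. Each of 4 conditions has 1 library. The first is labelled wild type on C57BL/6, the name the study's results also use, while its methods call it Control, a name they give to mice with floxed clusters. The Cart-miR-23clus KO library came from C57BL/6 mice with flox/flox miR-23a/b clusters and Col2a1-cre, in which Cre driven by the type II collagen promoter of cartilage removes the clusters that encode miR-23, miR-27 and miR-24. The miR-26a KO library came from miR-26a -/- mice on C57BL/6. The miR-26a KO + mimic library came from miR-26a -/- cells, labelled C57BL6/J, that were transfected with a double-stranded miR-26a mimic. The labels do not say whether the untransfected miR-26a KO cells received the negative control RNA. No replicate exists for any condition, so no difference below has a replicate check, no p-value is given, and all intervals cover the counting error of reads between libraries only.

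Before S phase, the origin recognition complex with Cdc6 and Cdt1 loads the Mcm helicase onto origins. Cdc45 and the GINS complex then switch the helicase on, primase and DNA polymerases copy the strands with the Pcna clamp, and Fen1 and Lig1 join the lagging-strand fragments. Ribonucleotide reductase and thymidine kinase raise the supply of deoxynucleotides, and E2F transcription factors and cyclin E switch many of these genes on at the border of G1 and S phase. In a growth plate, proliferating chondrocytes use this machinery and hypertrophic ones leave the cycle.

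The microRNAs that the mutants lack act by pairing of bases 2 to 8, the seed, with target mRNAs. The mature forms in RefSeq (GRCm38.p6) are given because seed matches in members are described with the results, with the seed in capitals. The mature miR-26a-5p is encoded on chromosome 9 (119031811 to 119031832) and on chromosome 10 (126995543 to 126995564), and the sense strand of the mimic in the labels was identical to it over its 22 bases.
miR-26a-5p: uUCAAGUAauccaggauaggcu
miR-23a-3p: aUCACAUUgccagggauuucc
miR-27a-3p: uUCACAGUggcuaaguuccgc
miR-24-3p: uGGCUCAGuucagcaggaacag
The last 3 lie together on chromosome 8, from 84208563 to 84208896, as 1 of the clusters. Their seeds differ from each other and from that of miR-26a.

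The wild type library held 1498579 reads on listed genes, the mimic library 1449246, miR-26a KO 1362870 and Cart-miR-23clus KO 1328042. Members were covered thinly. Their median was 18 reads in wild type and also 18 in miR-26a KO, 23 in Cart-miR-23clus KO and 22 in the mimic library, the highest value was 113 reads, and 19 of the 49 had fewer than 20 reads in every library. The markers of other cells in a bone preparation also moved between libraries. Summed over 15 chondrocyte markers, wild type had 40200 CPM and the others 30260 to 31100. CPM are reads scaled to a library of 1000000 reads on listed genes. Single chondrocyte markers went both ways. Against wild type, Cart-miR-23clus KO had 6 of the 15 higher and 9 lower. The miR-26a KO library and the mimic library each had 3 higher and 12 lower. The 11 osteoblast markers summed to 47510 CPM in wild type and 13950 to 28750 in the others, with Cart-miR-23clus KO lowest. The 7 fibroblast markers ranged from 2601 to 4140 CPM, and the 12 macrophage markers from 267.8 in miR-26a KO to 872.7 in Cart-miR-23clus KO. Fibroblast markers were mixed too, with 3 higher than wild type and 4 lower in Cart-miR-23clus KO. The miR-26a KO library and the mimic library each had 4 of them higher and 3 lower. The 6 endothelial markers summed to at most 4 reads in each of the 3 libraries with deposited counts and to 0.166 TPM in the mimic library, all from Kdr, whose reads could not be recovered there. The erythroid markers had 0 reads in every library. The part of these differences in the results below was not tested.

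Taken by their summed reads, the members were lowest in wild type. They made up 790.1 CPM there (1184 reads), 1116 in Cart-miR-23clus KO (1482 reads), 992 in the miR-26a KO library (1352 reads) and 1075 in the mimic library (1558 reads). Against wild type the sum was 1.41-fold higher in Cart-miR-23clus KO (95% interval 1.31 to 1.53), 1.26-fold in the miR-26a KO library (1.16 to 1.36) and 1.36-fold in the mimic library (1.26 to 1.47). These 3 comparisons share the wild type library, so they are not independent of each other. In a bulk library, fewer cycling cells and less of these mRNAs per cell cannot be told apart.

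Gene by gene, wild type was the lowest of the 4 libraries for 29 of the 49 members (59.2%), against 27.6% of all genes tested. Wild type was the highest library for 6 members (25.5% of all genes), Cart-miR-23clus KO for 18 (27.3% of all genes), miR-26a KO for 10 (24.8%) and the mimic library for 15 (22.4%). The median log2 ratio to wild type, on TPM + 0.5, was 0.42 in Cart-miR-23clus KO, 0.39 in the miR-26a KO library and 0.40 in the mimic library. Over all genes tested it was 0.00, 0.03 and 0.03. With 0.5 TPM added, the log2 ratio understates the difference of low genes. In Cart-miR-23clus KO 41 members were above wild type and 8 below, where 49.6% and 49.5% of all genes tested were. In miR-26a KO 33 were above and 16 below (52.4% and 46.5% of all genes), and in the mimic library 34 and 15 (51.9% and 46.9%).

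**Figure D1:**
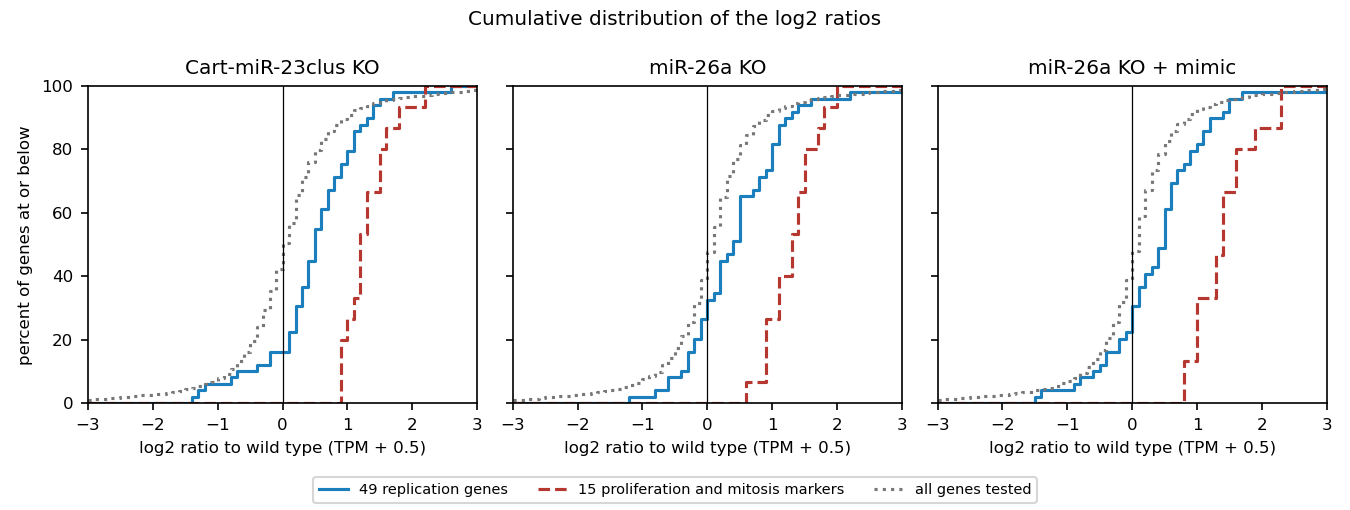
Percent of genes (vertical axis) with a log2 ratio to wild type on TPM + 0.5 at or below the value on the horizontal axis, for the 49 replication genes (solid), the 15 proliferation and mitosis markers (dashed) and all 13191 genes tested (dotted), 1 panel per library. The solid curve lies to the right of the dotted curve around its median of 0.42, 0.39 and 0.40, and the dashed curve lies further right, with medians of 1.19, 1.25 and 1.30. Members and markers were chosen with earlier results of these data known.

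Few members were past 2-fold. In Cart-miR-23clus KO, 10 members were over 2-fold higher than wild type, where 8.98% of all genes tested were, and 3 were over 2-fold lower (7.93% of all genes). In miR-26a KO 9 were over 2-fold higher (7.83% of all genes) and 1 lower (7.60%). In the mimic library 9 were over 2-fold higher (7.30%) and 2 lower (7.18%). In all 3 comparisons the share of the 49 members was thus above the background upwards and below it downwards.

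Counting error was the second criterion. The exact (Clopper-Pearson) 95% interval of the read ratio to wild type lay above 1 for 9 members in Cart-miR-23clus KO, where it did for 9.50% of all genes tested, for 7 in miR-26a KO (8.84%) and for 10 in the mimic library (8.27%). It lay below 1 for 0 members in each of the 3 comparisons, against 9.51%, 6.66% and 6.41% of all genes. Mcm2, Mcm3, Rrm1, Rrm2 and Tk1 were above 1 in all 3, which share the wild type library, where 2.71% of all genes tested were. Cart-miR-23clus KO added Pola2, Pole, Lig1 and Chaf1a, miR-26a KO added Fen1 and Ccne1, and the mimic library added Mcm6, Prim2, Lig1, E2f1 and Ccne1. Pole averaged 1.11 TPM and passed the filter only through Cart-miR-23clus KO, its highest library. Its place in the counts of that library, here and past 2-fold, is therefore not independent of the filter.

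**Figure D2:**
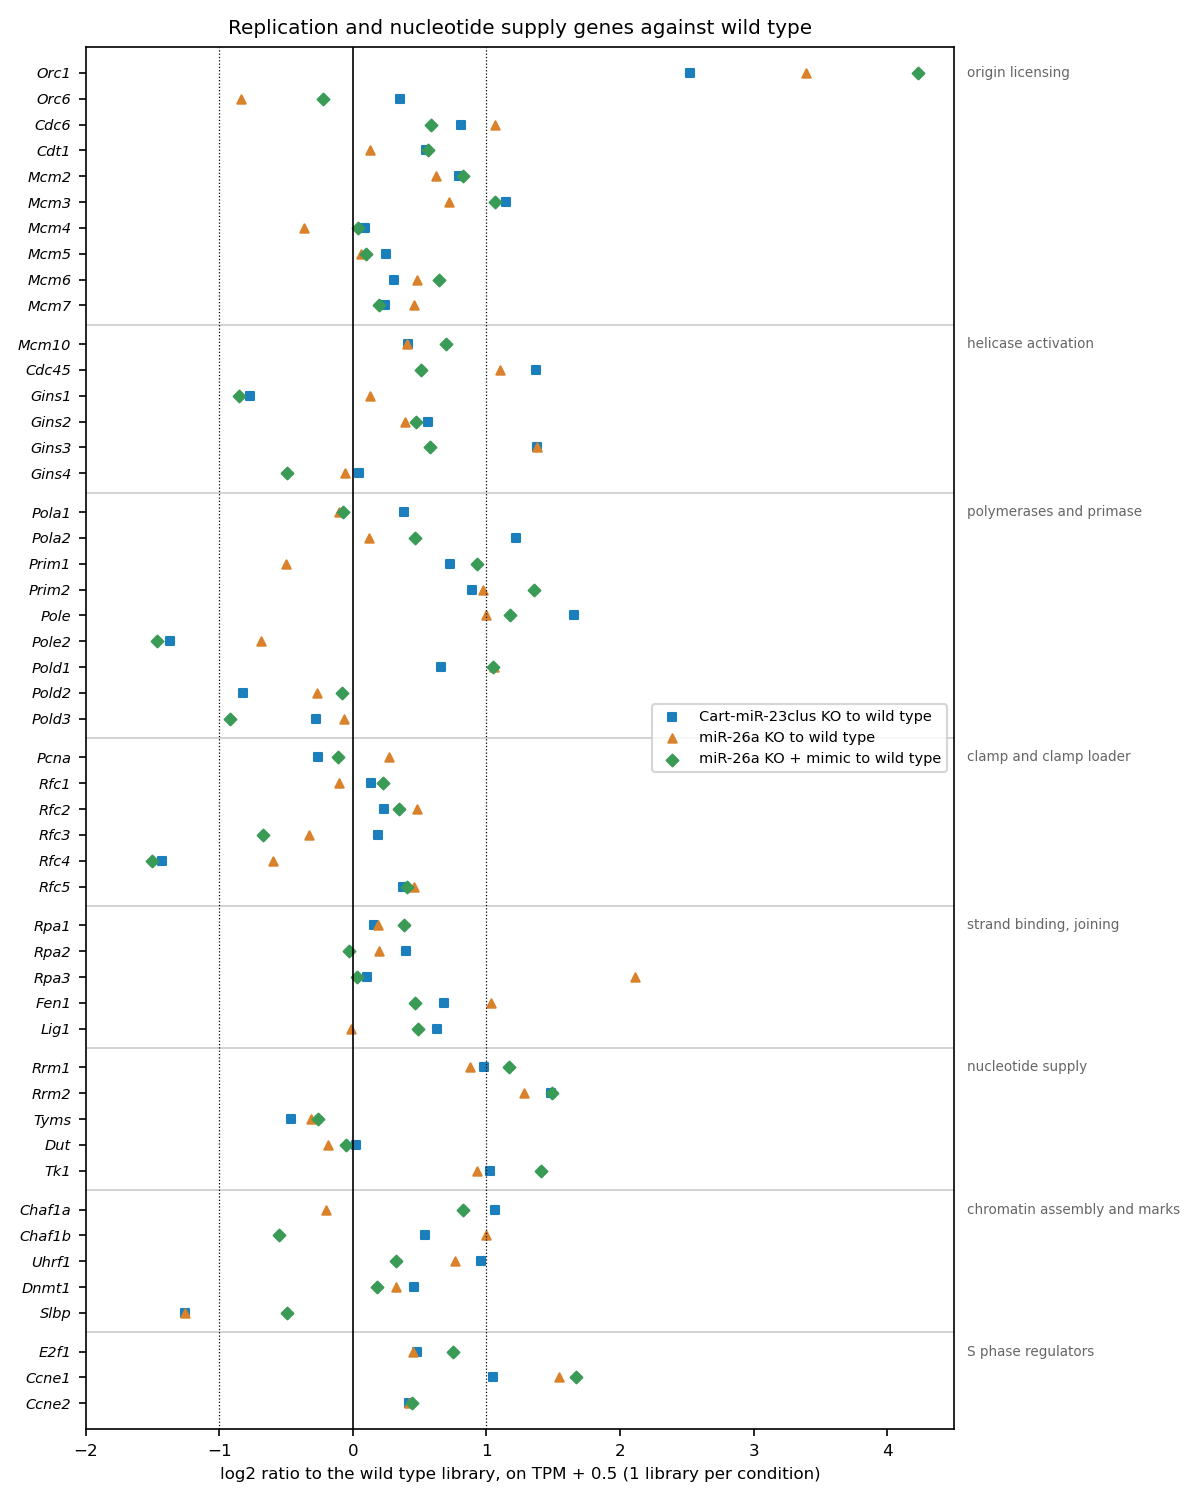
Log2 ratio to the wild type library on TPM + 0.5 (horizontal axis) for each of the 49 members (rows, grouped by role), with squares for Cart-miR-23clus KO, triangles for miR-26a KO and diamonds for miR-26a KO + mimic, 1 library each; dotted lines mark 2-fold. Most symbols lie right of 0 (41, 33 and 34 of 49), while Pole2, Pold2, Pold3, Rfc4, Tyms and Slbp lie left of it in all 3 libraries, and the points of Orc1 rest on 0 reads in wild type and at most 4 elsewhere.

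Nucleotide supply held 3 of the 5 members with an interval above 1 in all 3 comparisons. Rrm2, the regulated small subunit of ribonucleotide reductase (ENSMUSG00000020649, GRCm38 chromosome 12, 24708241 to 24714146), had 30 reads in wild type. It had 78 in Cart-miR-23clus KO, 68 in the miR-26a KO library and 84 in the mimic library. Wild type was the low library, and the other 3 were close together. The ratio to wild type was 2.86 in Cart-miR-23clus KO (1.86 to 4.52), 2.49 in the miR-26a KO library (1.60 to 3.96) and 2.87 in the mimic library (1.87 to 4.52). Rrm2 alone among the 49 was both over 2-fold higher and had an interval above 1 in all 3 comparisons, where 0.692% of all genes tested did.

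Rrm1, the large subunit of the same enzyme (ENSMUSG00000030978, chromosome 7, 102441695 to 102469771), had 23, 43, 40 and 53 reads in the order wild type, Cart-miR-23clus KO, then miR-26a KO, then mimic, which is kept below. Its ratios to wild type were 2.06 (1.21 to 3.58), 1.91 (1.12 to 3.34) and 2.37 (1.42 to 4.04). Tk1, the thymidine kinase of the salvage pathway (ENSMUSG00000025574, chromosome 11, 117815526 to 117826092), had 25, 47, 44 and 66 reads. Both genes thus had wild type lowest and the mimic library highest. The ratios of Tk1 were 2.07 (1.25 to 3.51), 1.93 (1.16 to 3.30) and 2.71 (1.69 to 4.48).

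The other 2 nucleotide genes did not show this. Dut, the dUTPase that keeps uracil out of DNA, had 80, 74, 64 and 75 reads and ratios of 1.02 (0.732 to 1.42), 0.879 (0.622 to 1.24) and 0.962 (0.693 to 1.33). Tyms, thymidylate synthase, had 25, 16, 18 and 20 reads, with wild type highest, and ratios of 0.705 (0.351 to 1.37), 0.791 (0.406 to 1.51) and 0.821 (0.432 to 1.54). The interval of Dut excludes a 2-fold difference either way in all 3 comparisons, whereas that of Tyms allows one downwards. Summed over the 5 genes, reads were 1.59-fold (1.31 to 1.93), 1.41-fold (1.15 to 1.72) and 1.68-fold (1.40 to 2.04) those of wild type.

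**Figure D3:**
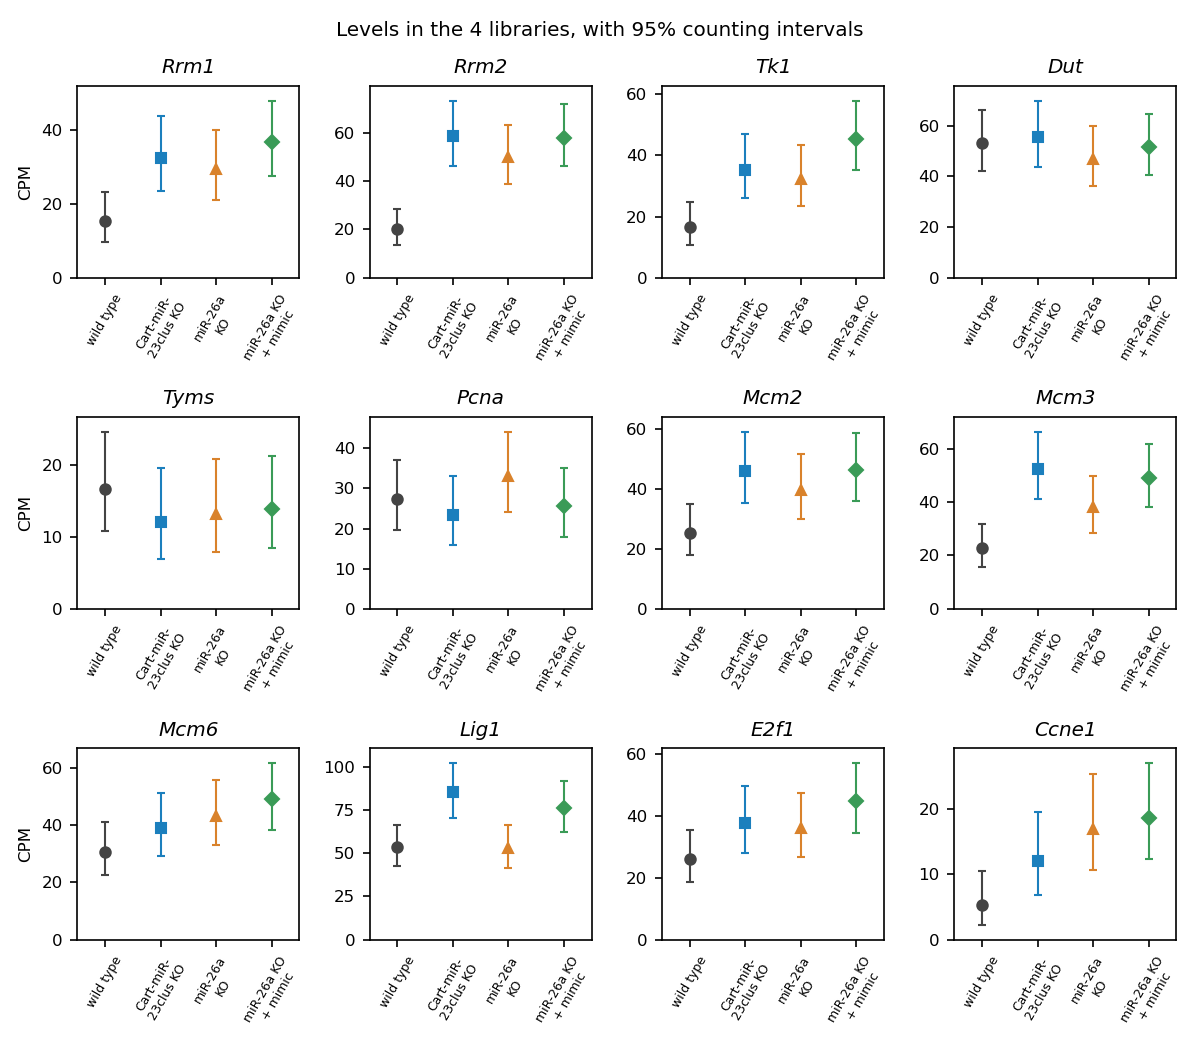
CPM (reads scaled to a common library size, vertical axis, from 0) of 12 members in the 4 libraries (horizontal axis), with bars for the exact 95% Poisson interval of the read count, 1 library per condition. Wild type is the lowest point for Rrm1, Rrm2, Tk1, Mcm2, Mcm3, Mcm6, E2f1 and Ccne1. Of these, only Rrm2 has a wild type bar that overlaps the bar of no other library. For Dut, Tyms and Pcna the bars overlap across all libraries, and for Lig1 the points are high in Cart-miR-23clus KO and the mimic library only.

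On TPM, the S phase regulators were lowest in wild type and highest in the mimic library for all 3 genes. Ccne1, the cyclin E1 that activates Cdk2 at the start of S phase (ENSMUSG00000002068, chromosome 7, 38097984 to 38107534), had 8, 16, 23 and 27 reads. Its ratio to wild type was 2.20 in Cart-miR-23clus KO (0.889 to 5.94), 3.16 in the miR-26a KO library (1.36 to 8.16) and 3.46 in the mimic library (1.53 to 8.82). The read counts are small, and only the last 2 intervals lie above 1. E2f1, an activating E2F factor (ENSMUSG00000027490, chromosome 2, 154559407 to 154569892), had 39, 50, 49 and 65 reads. The ratios of E2f1 were 1.41 (0.910 to 2.20), 1.38 (0.888 to 2.16) and 1.71 (1.13 to 2.61). Ccne2, the second cyclin E gene, had 9, 11, 11 and 12 reads, a difference too small to detect at this depth. By CPM, Ccne2 was level in Cart-miR-23clus KO (8.283) and the mimic library (8.280). As a group these regulators had 1.55-fold (1.09 to 2.23), 1.63-fold (1.15 to 2.33) and 1.92-fold (1.38 to 2.71) the wild type reads.

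Within origin licensing, the Mcm2-7 helicase held subunits with an interval above 1 and others with intervals that include it, and no difference between subunits was tested. Mcm3 (ENSMUSG00000041859, chromosome 1, 20802968 to 20820312) had 34, 70, 52 and 71 reads, with ratios to wild type of 2.27 (1.48 to 3.52), 1.68 (1.07 to 2.67) and 2.14 (1.41 to 3.33). Mcm2 (ENSMUSG00000002870, chromosome 6, 88883474 to 88898780) had 38, 61, 54 and 67 reads, with ratios of 1.77 (1.16 to 2.72), 1.56 (1.01 to 2.43) and 1.81 (1.20 to 2.77). Both had wild type lowest by reads and by ratio. Mcm6 had 46, 52, 59 and 71 reads and ratios of 1.25 (0.821 to 1.89), 1.41 (0.942 to 2.12) and 1.58 (1.08 to 2.35). Mcm7 had 50, 54, 63 and 56 reads, Mcm4 had 36, 35, 25 and 36, and Mcm5 had 21, 23, 20 and 22. The last 3 subunits had ratios between 0.763 and 1.38, and each of their intervals included 1. Although the 6 proteins form 1 ring, their mRNAs thus ranged in Cart-miR-23clus KO from 1.07-fold wild type for Mcm4 (0.653 to 1.75) to 2.27-fold for Mcm3, with intervals that overlap.

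Among the loaders, Cdc6 had 4, 8, 10 and 7 reads and Cdt1 17, 23, 17 and 25, with all intervals including 1. Orc1, the largest subunit of the origin recognition complex, had 0, 1, 2 and 4 reads. Each interval of its ratio to wild type included 1, with a lower limit of 0.677 in the mimic library, so no difference of Orc1 was detectable at this depth. With Orc1 set to no difference, the median log2 ratio of the 49 members became 0.41 in Cart-miR-23clus KO, 0.32 in the miR-26a KO library and 0.38 in the mimic library, and the members over 2-fold higher 9, 8 and 8. Orc6, a small subunit of the complex, had 18, 21, 9 and 15 reads, with a miR-26a KO to wild type ratio of 0.549 (0.217 to 1.29), an interval that includes 1. Licensing genes together reached 1.49-fold (1.26 to 1.75), 1.29-fold (1.10 to 1.53) and 1.47-fold (1.25 to 1.72) of the wild type reads.

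The helicase activators were counted with few reads. Gins2 and Gins4, subunits of the GINS complex, had 18, 25, 22 and 25 reads and 32, 30, 28 and 22 reads. The ratios of Gins2 lay between 1.34 and 1.53 and those of Gins4 between 0.706 and 1.03. No library was far above wild type for Gins4. Cdc45 had 4, 11, 9 and 6 reads, Gins3 had 3, 9, 9 and 5, Mcm10 had 6, 8, 8 and 11, and Gins1 had 2, 1, 2 and 1, and no interval excluded 1. Their sum was 1.46-fold wild type in Cart-miR-23clus KO (1.04 to 2.05), 1.32-fold in the miR-26a KO library (0.937 to 1.86) and 1.11-fold in the mimic library (0.783 to 1.59).

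Polymerase subunits went both ways. Pole, the catalytic subunit of polymerase epsilon, had 2, 13, 7 and 9 reads, with a ratio of 7.16 in Cart-miR-23clus KO (1.62 to 65.3). Pole passed the filter of 1 TPM only through Cart-miR-23clus KO. Pole2, its accessory subunit, had 9, 3, 5 and 3 reads, with a ratio of 0.367 there (0.0639 to 1.47). The subunits of 1 enzyme thus lay on opposite sides of wild type, on few reads. Pola2, the regulatory subunit of polymerase alpha, had 13, 29, 13 and 18 reads and was 2.46-fold wild type in Cart-miR-23clus KO (1.24 to 5.15). The last 500 bases of a Pola2 transcript carry a repeat that matches transcripts of 329 other genes, so its reads are uncertain. Prim2, the large primase subunit, had 9, 16, 17 and 24 reads, and its ratio in the mimic library was 2.74 (1.23 to 6.69). Prim1 had 5, 8, 3 and 10 reads.

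Of polymerase delta, the catalytic subunit Pold1 had 7, 11, 15 and 16 reads. Its partners Pold2 and Pold3 had wild type as the highest library. Pold2 had 24, 12, 18 and 22 reads and a ratio of 0.550 in Cart-miR-23clus KO (0.251 to 1.15), and Pold3 had 15, 11, 13 and 7 reads and a ratio of 0.479 in the mimic library (0.165 to 1.25). Pola1, the catalytic subunit of polymerase alpha, had 12, 15, 10 and 11 reads. Over the 9 genes the sum was 1.39-fold (1.05 to 1.83), 1.16-fold (0.866 to 1.55) and 1.29-fold (0.980 to 1.71) that of wild type.

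The sliding clamp and its loader stayed nearest to wild type. Pcna, the clamp itself and a common marker of proliferating cells (ENSMUSG00000027342, chromosome 2, 132249162 to 132253314), had 41, 31, 45 and 37 reads. Its ratios were 0.833 (0.505 to 1.36), 1.21 (0.772 to 1.89) and 0.926 (0.577 to 1.48). Pcna was lowest in Cart-miR-23clus KO, with wild type between the others. Rfc1, the large subunit of the clamp loader, had 84, 84, 71 and 96 reads, with ratios of 1.10 (0.804 to 1.51), 0.928 (0.667 to 1.29) and 1.17 (0.866 to 1.59). Rfc2 had 29, 31, 37 and 36 reads, Rfc5 had 26, 31, 33 and 34, Rfc3 had 25, 26, 18 and 15, and Rfc4 had 7, 2, 4 and 2. None of the 6 genes had an interval that excluded 1 against wild type, and their sum was 1.09-fold (0.896 to 1.33), 1.08-fold (0.887 to 1.31) and 1.07-fold (0.884 to 1.30).

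Genes of single-strand binding and fragment joining summed to 1.40-fold (1.17 to 1.67), 1.18-fold (0.983 to 1.42) and 1.27-fold (1.06 to 1.52) of wild type. Lig1, the ligase that seals lagging-strand fragments (ENSMUSG00000056394, chromosome 7, 13277283 to 13311433), had 80, 113, 72 and 110 reads. It fell into a high pair, Cart-miR-23clus KO and mimic, and a low pair, wild type and miR-26a KO. The ratios to wild type were 1.55 (1.16 to 2.10), 0.988 (0.709 to 1.38) and 1.41 (1.05 to 1.91). Fen1, the flap nuclease (ENSMUSG00000024742, chromosome 19, 10199132 to 10204169), had 16, 24, 31 and 22 reads, with miR-26a KO highest at 2.13-fold wild type (1.13 to 4.17). Of the single-strand binding protein, Rpa1 had 68, 69, 71 and 87 reads, with ratios from 1.12 to 1.31, and Rpa2 had 64, 77, 67 and 61, with ratios from 0.978 to 1.33, and all these intervals included 1. Rpa3, its smallest subunit, had 1, 1, 5 and 1 reads, highest in miR-26a KO.

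Of the genes that rebuild chromatin behind the fork, Chaf1a, the large subunit of chromatin assembly factor 1 (ENSMUSG00000002835, chromosome 17, 56040439 to 56072289), had 8, 18, 6 and 16 reads. Its ratio to wild type was 2.48 in Cart-miR-23clus KO (1.02 to 6.58), 0.824 in the miR-26a KO library (0.236 to 2.71) and 2.05 in the mimic library (0.829 to 5.54). Chaf1a shared with Lig1 the order of its libraries, with wild type and miR-26a KO low. Dnmt1, the maintenance DNA methyltransferase, had 53, 67, 61 and 59 reads and ratios of 1.39 (0.956 to 2.04), 1.26 (0.860 to 1.86) and 1.14 (0.775 to 1.69). Uhrf1, which guides Dnmt1 to new DNA, had 7, 14, 12 and 9 reads, Chaf1b 5, 7, 10 and 3, and Slbp, which binds the ends of histone mRNAs, 6, 2, 2 and 4. Summed over these 5 genes, reads were 1.54-fold (1.14 to 2.09), 1.27-fold (0.927 to 1.73) and 1.19-fold (0.871 to 1.63) those of wild type.

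**Figure D4:**
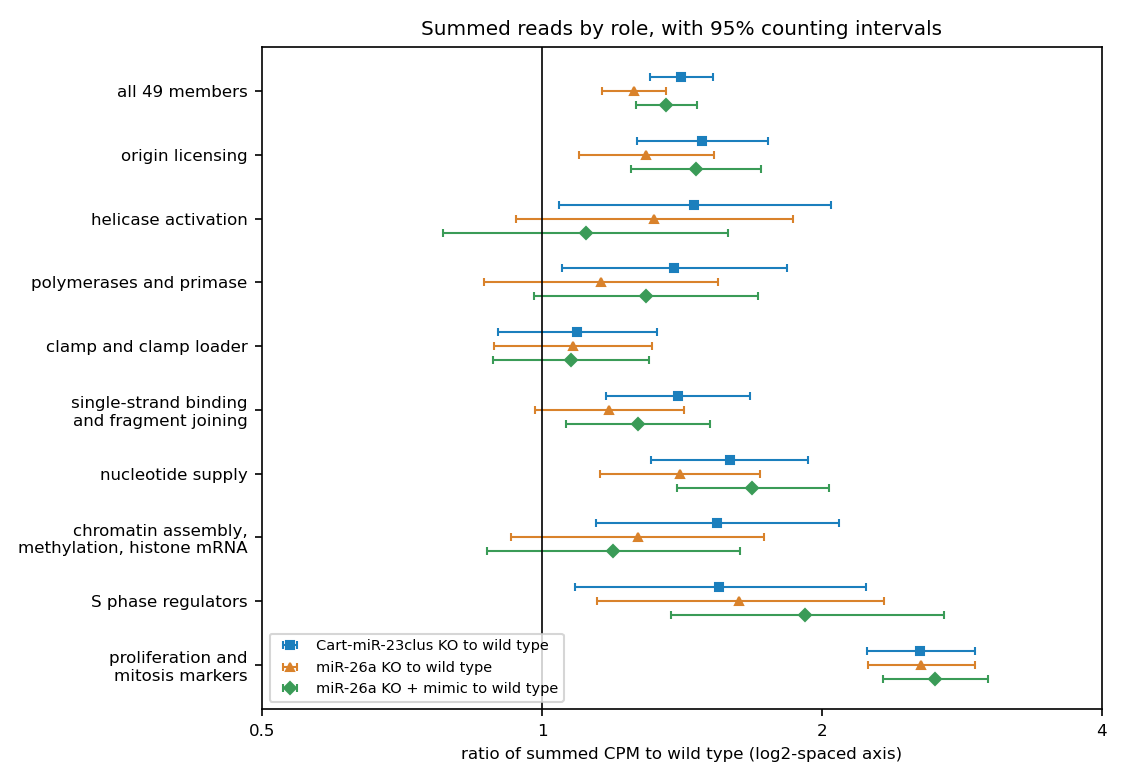
Ratio of summed CPM to wild type (horizontal axis, spaced in log2) for all 49 members, each role and the 15 proliferation and mitosis markers (rows), with squares for Cart-miR-23clus KO, triangles for miR-26a KO, diamonds for miR-26a KO + mimic and bars for exact 95% intervals on reads. Origin licensing, nucleotide supply and S phase regulators lie above 1 in all 3 libraries, the clamp and clamp loader bars include 1, and the mitosis markers lie at 2.55 to 2.65. Members and markers were chosen with earlier results of these data known.

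Markers of later cell cycle phases differed more than the replication genes, in a list written by hand with earlier results of these data known. It holds Mki67, Kif20a and Ube2c, which the study already reports as higher in Cart-miR-23clus KO. For 15 markers of proliferation and mitosis, wild type was the lowest library in all 15 (27.6% of all genes tested), and the summed reads were 321, 726, 747 and 822. Their ratios to wild type of 2.55 (2.23 to 2.92), 2.56 (2.24 to 2.93) and 2.65 (2.33 to 3.02) did not overlap the intervals of the 49 members given above. Cdk1, the mitotic kinase, had 85, 166, 163 and 163 reads, and Ccnb1, cyclin B1, had 14, 46, 51 and 37. Ccnb2 had 12, 30, 21 and 43 reads. No test of the difference between the lists was possible with 1 library per condition.

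Among the modified libraries the members differed less. The mimic library against miR-26a KO had a median log2 ratio of 0.08, beside -0.01 over all genes, and a summed ratio of 1.08 (1.01 to 1.17). On the scale of TPM it was 1.08 (1.00 to 1.16), with a lower limit that rounds to 1.00. In this comparison 2 members, Prim1 and Chaf1a, were over 2-fold higher (5.64% of all genes) and 2, Rpa3 and Chaf1b, over 2-fold lower (6.07%). The interval was above 1 for 1 member, Lig1, with a ratio of 1.43 (1.05 to 1.95), and below 1 for 0 members, where 4.04% and 4.02% of all genes were. The share of the members was below the background in each. All 5 nucleotide supply genes had a ratio above 1, where 47.4% of all genes tested were higher, from 1.04 for Tyms to 1.40 for Tk1 (0.943 to 2.10), and each interval included 1. Their summed reads were 1.20-fold those of miR-26a KO (1.01 to 1.43), or 1.19-fold (0.999 to 1.42) on the scale of TPM.

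Cart-miR-23clus KO against miR-26a KO had a median log2 ratio of 0.03, beside -0.02 over all genes, and a summed ratio of 1.13 (1.04 to 1.21). Members over 2-fold higher were Orc6, Pola2, Prim1 and Chaf1a, 4 of 49 where 8.05% of all genes were, and 1 was over 2-fold lower, Rpa3, where 7.29% were. The interval lay above 1 for Orc6, Pola2, Lig1 and Chaf1a, which is 4 members against 6.60% of all genes, and below 1 for 0 members against 8.32%. The higher shares were near the background. Lig1 had a ratio of 1.57 (1.16 to 2.15), Chaf1a 3.01 (1.14 to 9.26) and Orc6 2.34 (1.03 to 5.80). This comparison shares the miR-26a KO library with the one before it, in which that library also had the lower Lig1 and Chaf1a reads. For Rrm2 the ratio was 1.15 (0.820 to 1.62), so a 2-fold difference between these 2 libraries is outside its counting interval.

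The letters of E2F sites were looked for in the 250 bases before each RefSeq transcription start, on both strands, as TTTCGCGC, TTTGGCGC, TTCCCGCC or TTTCCCGC, forms that can overlap each other. Of the 41 members with a promoter entry, 13 held at least 1 form (Mcm5, Mcm6, Mcm7, Cdc6, Gins3, Pola1, Prim1, Rfc3, Rrm1, Orc1, Chaf1a, Uhrf1 and Dnmt1). This is 31.7% of the members with an entry, against 6.68% of the tested genes with one and 3.36% of all genes with one. Members without an entry were Mcm4, Gins1, Gins2, Gins4, Prim2, Pole, Rfc2 and Ccne2. The CCAAT box, the NF-Y motif common in cell cycle promoters, stood in the windows of 25 of these 41 members, against 40.7% of the tested genes and 37.5% of all genes with an entry. For 4 members the stretches around a match, read in the direction of the gene with the match in capitals, are as follows (GRCm38.p6), since these genes were described above with both high and flat ratios.
Rrm1, chr7:102441602-102441661, plus strand: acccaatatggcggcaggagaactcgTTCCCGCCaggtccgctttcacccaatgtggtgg
Mcm6, chr1:128359719-128359778, minus strand: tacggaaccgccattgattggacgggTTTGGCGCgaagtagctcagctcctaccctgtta
Mcm5, chr8:75109330-75109389, plus strand: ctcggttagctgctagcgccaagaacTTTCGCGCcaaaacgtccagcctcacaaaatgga
Chaf1a, chr17:56040343-56040402, plus strand: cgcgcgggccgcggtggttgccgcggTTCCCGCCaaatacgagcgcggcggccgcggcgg
The match ended 59 bases before the start in Rrm1, 39 in Mcm6, 145 in Mcm5 and 39 in Chaf1a. Across the members with a match other than Orc1, whose log2 ratios rest on 0 reads in wild type, the median log2 ratio to wild type was 0.59 in Cart-miR-23clus KO (12 genes, range 0.19 to 1.38), 0.39 in the miR-26a KO library (-0.50 to 1.38) and 0.45 in the mimic library (-0.68 to 1.17). With Orc1 the medians were 0.73, 0.46 and 0.58. Across the 28 without these letters it was 0.41 (-1.43 to 1.48), 0.23 (-1.26 to 2.11) and 0.39 (-1.50 to 1.67), so the ranges overlapped widely and, Orc1 aside, the highest values were among the members without a match. For the mimic library against miR-26a KO the order was reversed, with -0.05 for those 12 members and 0.16 for the members without a match, and for Cart-miR-23clus KO against miR-26a KO the medians were 0.16 and 0.00. The windows of Rrm2, Tk1 and Mcm3 held none of the 4 forms, which says nothing of the factor itself.

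Matches to the miR-26a seed (TACTTGA in the 3′ UTR) were found in 5 of the 48 members with an annotated 3′ UTR of at least 50 bases, or 10.4%, against 12.4% of the 11182 tested genes with one. Cyclin E2 has been described as a target of miR-26a in other cells. The 5 sites are shown with the match in capitals, on GRCm38 by GENCODE transcripts, because these members could pair with the mimic.
Ccne1, chr7:38098246-38098272, minus strand: tgctaaggagggtgcTACTTGAcccac
Ccne2, chr4:11203849-11203875, plus strand: tctactcgggggtttTACTTGAtagaa
Chaf1a, chr17:56068006-56068032, plus strand: tgtataaacatactcTACTTGAgccct
Gins2, chr8:120581019-120581045, minus strand: aagtcaaagcttgcgTACTTGAaagag
Rpa1, chr11:75300579-75300605, minus strand: catagtggggtcagtTACTTGAgacac
Ccne1, with its ratio of 3.16 for miR-26a KO to wild type, had a ratio of the mimic library to miR-26a KO of 1.10 (0.606 to 2.00). The same ratio was 1.02 for Ccne2 (0.412 to 2.55), 2.49 for Chaf1a (0.926 to 7.77), 1.06 for Gins2 (0.575 to 1.98) and 1.15 for Rpa1 (0.827 to 1.59). None of the 5 was lower with the mimic by ratio, where 51.3% of all genes tested were, and every interval included 1.

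Seed matches of the clusters were also no more frequent in members than in other genes. The miR-23 match (AATGTGA) was in 5 of 48 members (10.4%, against 17.9% of tested genes), the miR-27 match (ACTGTGA) in 7 (14.6%, against 18.6%) and the miR-24 match (CTGAGCC) in 4 (8.33%, against 20.4%). Of the members with an interval above 1 in Cart-miR-23clus KO against wild type, Rrm2 held a miR-27 match, Mcm2 a miR-24 match and Chaf1a matches for miR-23 and miR-24.

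Other genes of the pathway, 80 tested of 88 listed by hand, had median log2 ratios to wild type of 0.07 in Cart-miR-23clus KO, 0.26 in the miR-26a KO library and 0.15 in the mimic library. They had an interval above 1 for 7, 13 and 9 genes, against 9.50%, 8.84% and 8.27% of all genes tested. It was below 1 for 11, 4 and 3, against 9.51%, 6.66% and 6.41%. The count above 1 in Cart-miR-23clus KO was thus near the background. Top2a, the topoisomerase that frees replicated chromosomes, had 49, 97, 119 and 133 reads and ratios of 2.18 (1.53 to 3.14), 2.67 (1.90 to 3.80) and 2.79 (1.99 to 3.95). In the list of 13 tested fork accessory genes the interval was above 1 for 2, 4 and 3 genes and below 1 for 0 in each (9.50%, 8.84% and 8.27% of all genes above, 9.51%, 6.66% and 6.41% below). Summed, the fork accessory genes had 1.37-fold (1.25 to 1.51), 1.23-fold (1.12 to 1.36) and 1.20-fold (1.09 to 1.33) the wild type reads. Pold4, the smallest polymerase delta subunit, had 24, 22, 38 and 46 reads, with miR-26a KO at 1.74-fold wild type (1.02 to 3.03), and Rnaseh2b had 25, 24, 20 and 21.

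Of 12 tested origin and firing factors the interval was above 1 for 1, 0 and 2 genes and below 1 for 1, 0 and 1, beside the same shares of all genes, and the sums were 1.06-fold (0.884 to 1.28), 0.982-fold (0.815 to 1.18) and 1.08-fold (0.907 to 1.30) of wild type. Orc3 had 20, 38, 24 and 33 reads and was 2.09-fold wild type in Cart-miR-23clus KO (1.19 to 3.79). Mcmbp, which binds Mcm proteins, had 65, 27, 44 and 47 reads and a ratio of 0.457 there (0.281 to 0.727). Orc5 had 23, 22, 27 and 21 reads. The 22 further nucleotide synthesis genes summed to 1.08-fold (1.02 to 1.15), 1.09-fold (1.03 to 1.15) and 1.07-fold (1.01 to 1.14) of wild type, the first of which was 1.06-fold (0.998 to 1.12) on the scale of TPM. Impdh1, an enzyme of guanine nucleotide synthesis, had 69, 24, 43 and 46 reads and a ratio of 0.383 in Cart-miR-23clus KO (0.230 to 0.617). Paics, of purine synthesis, had 743, 768, 766 and 742 reads, and Ctps2, a CTP synthase, 21, 31, 13 and 23.

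The histone chaperones summed to 1.04-fold (0.953 to 1.14), 1.01-fold (0.921 to 1.10) and 1.01-fold (0.923 to 1.10) of wild type. Nasp, a histone H1 and H3 chaperone, had 38, 56, 61 and 51 reads and ratios of 1.62 (1.06 to 2.52), 1.76 (1.16 to 2.72) and 1.38 (0.887 to 2.15). Rbbp4 had 555, 497, 522 and 554 reads and Ezh2 26, 15, 26 and 26. The E2F and RB family summed to 1.06-fold (0.888 to 1.27), 1.20-fold (1.01 to 1.43) and 1.27-fold (1.08 to 1.51) of wild type, and its median log2 ratios were -0.21, 0.43 and 0.32, so sum and median differ in sign in Cart-miR-23clus KO. Rb1, the retinoblastoma protein that holds E2F in check, had 37, 17, 29 and 38 reads and a ratio of 0.506 in Cart-miR-23clus KO (0.267 to 0.921). Tfdp1, the partner of E2F factors, had 27, 21, 34 and 49 reads and was 1.86-fold wild type in the mimic library (1.14 to 3.10). Tfdp2 had 20, 24, 25 and 22 reads.

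The 15 G1 and S phase cyclins, cyclin-dependent kinases and inhibitors had summed reads of 0.798-fold wild type in Cart-miR-23clus KO (0.771 to 0.826), opposite in direction to the members, and 1.06-fold (1.02 to 1.09) and 1.01-fold (0.975 to 1.04) in the other 2 libraries. The interval was above 1 for 0, 3 and 1 of these genes and below 1 for 7, 3 and 2, against the shares of all genes given above. By range over the libraries, 2 inhibitors led the list. Cdkn1c, the p57 inhibitor and an imprinted gene, had 87, 46, 12 and 8 reads, highest in wild type, and ratios of 0.582 (0.398 to 0.842), 0.151 (0.0754 to 0.278) and 0.0944 (0.0395 to 0.194). Cdkn2a, which encodes p16 and p19ARF, had 150, 81, 201 and 191 reads, with ratios of 0.595 (0.448 to 0.784), 1.47 (1.19 to 1.83) and 1.31 (1.05 to 1.63). Cdkn1c was therefore lower in all 3 libraries than in wild type, and Cdkn2a was lower in Cart-miR-23clus KO and higher in the other 2. Cdkn1b, the p27 inhibitor, had 124, 119, 99 and 110 reads, and its intervals included 1.

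Some members may share reads with other genes. The last 500 bases of Ccne2, Chaf1a, Fen1, Gins2, Mcm7, Rfc4 and Rfc5 overlap exons of a gene on the opposite strand, and whether the counting used strand is not given in the sources used here. For Chaf1a that gene is Ubxn6, with 54, 53, 84 and 86 reads. Copies with at least 95% identity over 75 bases exist for the ends of Mcm4, Mcm7, Pole2, Rpa3, Rrm2, Slbp and Tyms, and those copies had at most 1 read in any library. By the same rule the ends of Mcm5 match Mns1 and Tex9, and those of Rfc2 match Dleu2 and Itch, all of which had reads in every library.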

How the data were processed

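The authors prepared 3′ libraries and deposited TPM for all 4 libraries, and an estimated count of reads per gene, without normalization, for 3 of them. The submitters' processing notes name mm10 and GRCm38.p6, and the aligner and counter are not given in the sources used here. For 94.9% of genes the length behind TPM was, within 1%, that of the first transcript listed in GENCODE, so levels were compared within genes only. Reads of the mimic library were recovered from its TPM and were whole within 0.05 for all 14429 values tested, with 588 not recovered. The same recovery returned the deposited counts of miR-26a KO for 100% of 14439 genes.

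Log2 ratios were taken on TPM + 0.5 wherever the 4 libraries averaged 1 TPM or more. The 95% intervals are Clopper-Pearson intervals, exact for the 2 read counts. For single genes they were scaled as TPM is (a factor to wild type of 1.10 for Cart-miR-23clus KO, 1.10 for miR-26a KO and 1.03 for the mimic library), and for summed reads by the read totals (1.13, 1.10 and 1.03). The interval code was tested on simulated data. The members and lists were chosen with earlier results of these data known. All members are accounted for by role. Genes of other lists are named as the 2 with the largest and the 1 with the smallest range over libraries among genes with at least 60 reads over the 3 counted libraries. Lists of cell type markers, further pathway genes and mitosis markers were written by hand. Promoters and miRNAs came from RefSeq, UTRs and positions from GENCODE vM21 (GRCm38), whose gene identifiers matched all 55450 of the count table. Transcript ends were compared with BLAST+ 2.17.0. Scripts ran in Python 3.11.15 with scipy 1.17.1, pandas 2.3.3, numpy 2.4.6 and matplotlib 3.10.9, and in R 4.3.3. Scaling by edgeR 4.0.16 and DESeq2 1.42.0 was tried as an alternative.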

Additional observations from a re-analysis of the deposited data

How the results depend on the processing

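No paired analysis was possible because every condition is a single library, and for the same reason no library could be left out. Of 160 values computed under other settings, 121 stayed within the limits set for them, 39 moved and 0 reversed. Only medians and summed ratios could be called reversed, since a count could only stay or move. The median log2 ratio of the members kept its sign throughout, from 0.37 to 0.51 for Cart-miR-23clus KO to wild type, 0.29 to 0.42 for miR-26a KO to wild type, 0.38 to 0.42 for the mimic library to wild type, 0.07 to 0.15 for the mimic library to miR-26a KO and 0.03 to 0.13 for Cart-miR-23clus KO to miR-26a KO. The summed ratios on the scale of TPM, added after seeing the data, were 1.38, 1.25, 1.35, 1.08 and 1.10. Scaling by CPM, TMM or DESeq2 size factors, and leaving out the 3 members with a short length for TPM (chosen after seeing the data), moved no count by over 1.5 times. Dropping the filter could change no value, because all 49 members passed it.

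The counts of members past the fold did move with filters and thresholds. They are given in the order of those 5 comparisons, higher then lower, where they moved. Shares of all genes under the same setting stand in parentheses. With a mean of at least 5 TPM, which 32 members passed, they were 5 and 1 (5.22% and 4.45%), 3 and 0 (4.44% and 3.76%), 1 lower only (3.23%), 0 and 0 (2.34% and 2.44%), and 2 and 0 (4.27% and 3.92%). With at least 60 reads over the 3 counted libraries, which 23 members had, they were 3 and 0 (2.72% and 2.34%), 2 and 0 (2.37% and 1.45%), 4 and 0 (2.06% and 1.38%), 0 and 0 (0.359% and 0.585%), and 0 and 0 (1.87% and 1.97%). At 1.5-fold they were 19 and 5 (17.2% and 16.4%), 17 and 4 (15.9% and 14.8%), 15 and 5 (14.6% and 14.3%), 5 and 8 (11.6% and 12.5%), and 5 lower only (15.8%). Requiring the interval to exclude 1 as well gave 6 and 0 (3.62% and 2.93%), 3 and 0 (2.96% and 2.15%), 0 lower (1.97%), 0 and 0 (1.17% and 0.895%), and 0 lower (2.50%). A pseudocount of 1 TPM gave 5 higher for miR-26a KO to wild type (6.68%) and 1 higher for the mimic library to miR-26a KO (4.64%), and one of 0.1 TPM gave 4 lower for the latter (7.57%). Fewer genes enter the filtered counts. Coverage was thin. With a median of 18 to 23 reads per member and library, the interval of the ratio to wild type included both 1 and 2 for 26 of the 49 members in Cart-miR-23clus KO, 29 in the miR-26a KO library and 23 in the mimic library. The intervals leave out all variation between cultures.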
